A study of Homo sapiens with 6 samples.

Results

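The 9 genes described here are known targets of p53: CDKN1A, BTG2, GADD45A, MDM2, TP53INP1, ZMAT3, PHLDA3, SESN1 and FDXR. They were chosen by symbol, as known arrest and feedback genes of the p53 pathway, with earlier results of these data known. They were taken from the 4546 genes of the deposited table, so the presence of all 9 there follows from the choice. The study compared A549 cells given 50 nM mitoxantrone for 48 hours (3 libraries) with A549 cells given a 1/1000 dilution of DMSO, the solvent, for the same time (3 libraries). A549 is a human lung adenocarcinoma cell line. Mitoxantrone is an anthracenedione that intercalates into DNA and traps topoisomerase II on it, so that double-strand breaks form. RNA was sequenced in paired ends, and both groups came from the same parental line with no genetic change named in the labels. The libraries are named mitoxantrone 1 to 3 and DMSO 1 to 3 after their titles. The labels do not say whether they came from separate cultures, so p-values measure the spread between these libraries, which may be technical.

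p53 is a transcription factor that is normally kept low because MDM2, a ubiquitin ligase, binds it and marks it for destruction. DNA damage activates the kinases ATM, ATR, CHEK1 and CHEK2, which phosphorylate p53 and loosen that hold, and p53 then binds response elements near its target genes. Some targets halt the cell cycle, above all CDKN1A, and others act back on the pathway itself, with MDM2 closing the loop. In lung adenocarcinoma cells a long-lasting arrest of this kind after topoisomerase poisons is often called senescence, the setting that the title of the series names.

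The table had been selected before deposit. Its smallest absolute log2 fold change was 1.00 and its largest adjusted p was 0.0497, so every gene in it, the 9 included, had passed a threshold on these same libraries. Reads per library over all genes, back-calculated from the FPKM values, were 16681380 to 19352443 for mitoxantrone and 20380674 to 21781220 for DMSO, and the listed genes took 16.9 to 17.3% of them. Counts were divided by the authors' size factors, recovered from their mean normalized counts, to give normalized counts. Differences were tested with the quasi-likelihood test of edgeR, with p-values adjusted by Benjamini and Hochberg over all 4546 genes. At an adjusted p of 0.05 that test called 100% of the listed genes, 58.9% higher and 41.1% lower with mitoxantrone, as the selection fixes. Of the 9 genes, 8 were higher and 1, GADD45A, was lower, which for that reason is a description and no independent evidence. In 98.3% of the listed genes the libraries of the groups did not overlap, and the same was true of the 9. A second test asked for a change beyond 2-fold. It called 80.6% of the listed genes (48.5% higher, 32.1% lower) and all 9 of these genes, with adjusted p-values between 8.4e-12 (GADD45A) and 1.5e-29 (TP53INP1). The median log2 fold change of the 9 was 2.79, against 1.20 for all genes tested. Because small changes had been cut from the table, such medians also depend on the share of higher genes. By size of change among the 2677 higher genes, the 8 ranked from 309 (TP53INP1) to 1577 (PHLDA3).

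**Figure D1:**
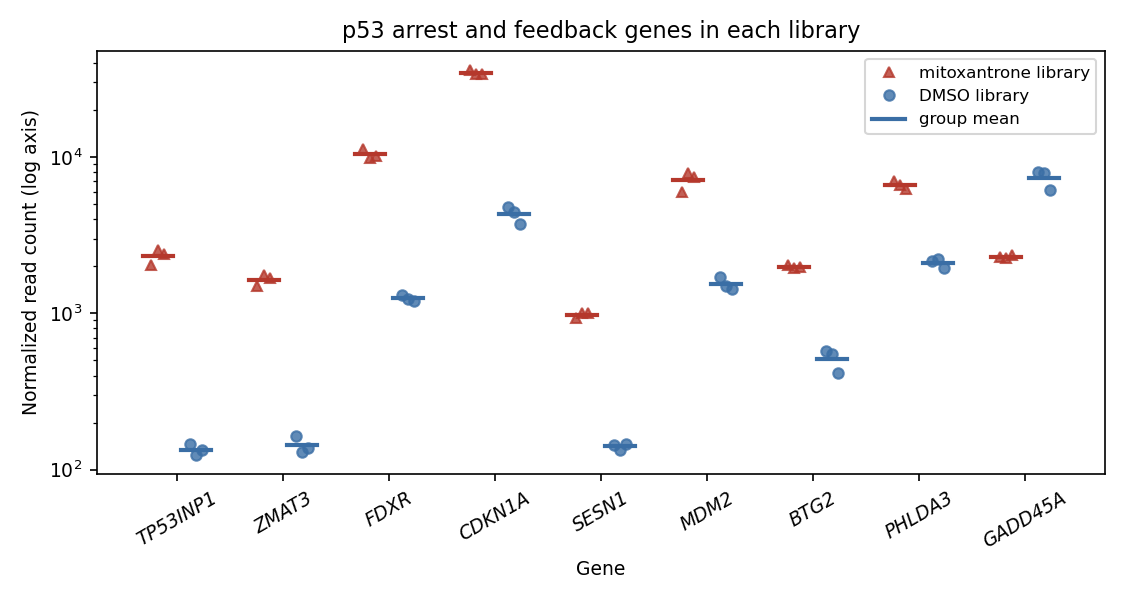
Normalized counts (log axis) of the 9 genes in each library, with mitoxantrone libraries left of DMSO libraries in every pair; triangles and circles are libraries and short lines are group means. The mitoxantrone points lie above the DMSO points for 8 genes and below them for GADD45A, with no overlap in any gene.

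Promoter sequence was available in RefSeq (GRCh38.p14) for 6 of the 9 genes, in 13 windows that run from 250 bases before to 50 bases after an annotated start. PHLDA3, TP53INP1 and GADD45A had no entry. A scan for the p53 response element, made of 2 adjacent 10-letter units with their C and G cores kept and at most 3 mismatches over 20 letters, found a match in MDM2, SESN1 and FDXR. BTG2, CDKN1A and ZMAT3 had none within that limit in this window, which says only that these letters are not there; the limit was set after the matches had been seen. Among all 35116 promoter windows 1.12% held such a match, or 1.37% of 27305 genes. The windows below are shown because they hold these matches, beside that of CDKN1A, whose well-known p53 elements lie farther upstream. Capitals mark the response element match in MDM2 (2 mismatches), SESN1 and FDXR (3 mismatches each), and the GC boxes, GGGCGG on either strand, in CDKN1A.
MDM2: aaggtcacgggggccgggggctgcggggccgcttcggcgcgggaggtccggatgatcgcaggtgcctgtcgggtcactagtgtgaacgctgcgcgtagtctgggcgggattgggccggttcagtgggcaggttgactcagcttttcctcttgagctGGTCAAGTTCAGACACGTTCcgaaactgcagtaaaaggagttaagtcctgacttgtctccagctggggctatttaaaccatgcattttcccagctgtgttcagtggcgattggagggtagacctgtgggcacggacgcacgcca
SESN1: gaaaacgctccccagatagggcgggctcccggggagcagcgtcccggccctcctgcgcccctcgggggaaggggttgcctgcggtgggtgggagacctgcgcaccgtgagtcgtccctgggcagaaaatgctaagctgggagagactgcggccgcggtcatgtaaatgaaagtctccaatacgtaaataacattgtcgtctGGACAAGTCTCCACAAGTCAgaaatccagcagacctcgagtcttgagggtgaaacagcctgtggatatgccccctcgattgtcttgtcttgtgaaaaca
FDXR: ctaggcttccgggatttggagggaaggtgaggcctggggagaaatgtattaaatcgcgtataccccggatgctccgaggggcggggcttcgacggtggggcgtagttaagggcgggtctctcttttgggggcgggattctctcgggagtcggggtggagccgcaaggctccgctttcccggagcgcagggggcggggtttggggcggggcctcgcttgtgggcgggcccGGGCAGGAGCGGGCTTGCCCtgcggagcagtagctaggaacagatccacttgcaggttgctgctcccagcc
CDKN1A: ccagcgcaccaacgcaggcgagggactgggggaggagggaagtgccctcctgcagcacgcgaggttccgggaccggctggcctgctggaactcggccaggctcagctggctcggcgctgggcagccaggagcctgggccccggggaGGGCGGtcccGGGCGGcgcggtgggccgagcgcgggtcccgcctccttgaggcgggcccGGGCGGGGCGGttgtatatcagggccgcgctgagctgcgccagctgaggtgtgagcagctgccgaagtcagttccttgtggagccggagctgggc
The MDM2 window is chr12:68808767-68809066 on the plus strand, at an annotated start downstream of the first MDM2 start, and its match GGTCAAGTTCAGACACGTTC lies 94 to 75 bases before that start. In SESN1 the window is chr6:109008939-109009238 on the minus strand, with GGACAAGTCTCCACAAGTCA at 49 to 30 bases before the start. The FDXR window, chr17:74872945-74873244 on the minus strand, has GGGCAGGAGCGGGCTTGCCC at 21 to 2 bases before the start. The CDKN1A window is chr6:36678464-36678763 on the plus strand and holds 4 GC boxes. GC boxes are not particular to it: the FDXR window shown holds 6, and the MDM2 and SESN1 windows shown hold 1 each, left in lower case. Such a box was present in 45% of all windows. A match is a description of letters and was not tested as a binding site. The counts are per gene, so transcripts from the different starts of MDM2 (4 windows) or SESN1 (3 windows) could not be told apart. Window positions are in GRCh38.p14 and do not match the authors' gene coordinates given below, which place CDKN1A and MDM2 elsewhere. Positions from these sources cannot be set side by side.

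Among the genes that act on the cell cycle, CDKN1A and BTG2 were higher with mitoxantrone and GADD45A was lower. CDKN1A encodes p21, the inhibitor of cyclin-dependent kinases through which p53 arrests cells. CDKN1A (ENSG00000124762; chromosome 6, 36644305 to 36655116, plus strand, in the authors' coordinates, whose build is not given in the sources used here) had 35972, 34079 and 33746 normalized counts in the mitoxantrone libraries, against 4789, 4439 and 3704 in the DMSO libraries. The 3 mitoxantrone libraries lay close together, and DMSO 3 was the lowest of all 6. The means were 34599 ± 1201 for mitoxantrone and 4311 ± 554 for DMSO (SD, n = 3 each), an 8.03-fold difference (log2 fold change 3.0 ± 0.07 SE, adjusted p = 3.3e-33, edgeR). CDKN1A alone took 0.174 ± 0.00384% of all reads in mitoxantrone libraries and 0.0230 ± 0.00291% in DMSO libraries (SD, n = 3 each).

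BTG2 encodes an antiproliferative protein that brings the CCR4-NOT deadenylase to mRNAs. BTG2 (ENSG00000159388; chromosome 1, 203274619 to 203278730, plus strand) had 2038, 1959.6 and 1970.0 normalized counts in the mitoxantrone libraries, against 572, 546 and 417 in the DMSO libraries. The mitoxantrone libraries were nearly equal, while DMSO 3 stood below the other DMSO libraries. The log2 fold change was 1.96 ± 0.09 (SE), a 3.89-fold higher mean (adjusted p = 2.4e-23, edgeR).

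GADD45A encodes a small stress protein that binds PCNA, p21 and the CDK1 and cyclin B complex, and activates MAP3K4. It was the only 1 of the 9 genes that was lower with mitoxantrone. GADD45A (ENSG00000116717; chromosome 1, 68150744 to 68154021, plus strand) had 2290.0, 2259.9 and 2350.5 normalized counts in the mitoxantrone libraries, against 8023, 7837 and 6133 in the DMSO libraries. All 3 mitoxantrone libraries were below the lowest DMSO library, DMSO 3. The mean was 2300.1 ± 46.1 with mitoxantrone and 7331 ± 1042 with DMSO (SD, n = 3 each), or 3.19-fold lower (log2 fold change -1.67 ± 0.07 SE, adjusted p = 2.9e-23, edgeR). Among the 1869 listed genes that were lower, it ranked 773 by size of change. Without DMSO 3 the log2 fold change was -1.79.

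Those of the 9 genes that act back on p53 or on growth signalling were all higher. TP53INP1, which encodes a stress protein that works with HIPK2 to promote p53 phosphorylation and also takes part in autophagy, had the largest fold change of the 9. TP53INP1 (ENSG00000164938, on chromosome 8) had 2048, 2548 and 2381 normalized counts in the mitoxantrone libraries, against 145, 124 and 133 in the DMSO libraries. Mitoxantrone 1 was the lowest of its group and still far above each DMSO library. The 17.3-fold difference (log2 fold change 4.11 ± 0.10 SE, adjusted p = 7.5e-33, edgeR) ranked 309 among the 2677 listed genes that were higher.

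ZMAT3, an RNA-binding zinc finger protein also known as WIG1, came next. ZMAT3 (ENSG00000172667; chromosome 3, 178735011 to 178790067, minus strand) had 1494, 1749 and 1680.2 normalized counts in the mitoxantrone libraries, against 165, 130.0 and 137 in the DMSO libraries. Mitoxantrone 1 was again lowest in its group, and DMSO 1 was highest in its own, without overlap. The fold difference was 11.4 (log2 fold change 3.51 ± 0.10 SE, adjusted p = 2.4e-30, edgeR).

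MDM2, the ligase that limits p53, rose less than these in proportion. MDM2 (ENSG00000135679; chromosome 12, 69201956 to 69239214, plus strand) had 6004, 7843 and 7444 normalized counts in the mitoxantrone libraries, against 1713, 1503 and 1431 in the DMSO libraries. Mitoxantrone 1 stood below mitoxantrone 2 and 3 by more than the DMSO libraries differed, and no library overlapped. The group means of 7097 ± 967 for mitoxantrone and 1549 ± 147 for DMSO (SD, n = 3 each) gave a 4.58-fold difference (log2 fold change 2.2 ± 0.08 SE, adjusted p = 1.9e-26, edgeR).

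PHLDA3, a protein made of little more than a pleckstrin homology domain, competes with AKT for membrane lipids and so restrains it. PHLDA3 (ENSG00000174307; chromosome 1, 201434620 to 201438365, minus strand) had 7029.7, 6573 and 6216 normalized counts in the mitoxantrone libraries, against 2148, 2231 and 1939 in the DMSO libraries. Here mitoxantrone 1 was the highest library. The fold difference of 3.14 (log2 fold change 1.65 ± 0.07 SE, adjusted p = 2.0e-24, edgeR) was the smallest of the 8 higher genes, ranking 1577 of 2677.

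SESN1 and FDXR link the pathway to metabolism, and both were higher. SESN1 encodes a sestrin, which restrains mTORC1 through the GATOR2 complex. SESN1 (ENSG00000080546; chromosome 6, 109307640 to 109416022, minus strand) had 928, 998 and 1006 normalized counts in the mitoxantrone libraries, against 143, 134 and 146 in the DMSO libraries. Within each group the libraries were close, and between groups they were far apart, with a 6.93-fold difference (log2 fold change 2.79 ± 0.10 SE, adjusted p = 6.4e-27, edgeR). FDXR encodes ferredoxin reductase, the mitochondrial flavoprotein that passes electrons from NADPH to ferredoxin. FDXR (ENSG00000161513; chromosome 17, 72858619 to 72869156, minus strand) had 11194, 9862 and 10157 normalized counts in the mitoxantrone libraries, against 1302, 1231 and 1199 in the DMSO libraries. Its groups did not overlap, and mitoxantrone 1 was its highest library. The 8.36-fold difference (log2 fold change 3.06 ± 0.07 SE, adjusted p = 1.2e-33, edgeR) was close to that of CDKN1A.

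**Figure D2:**
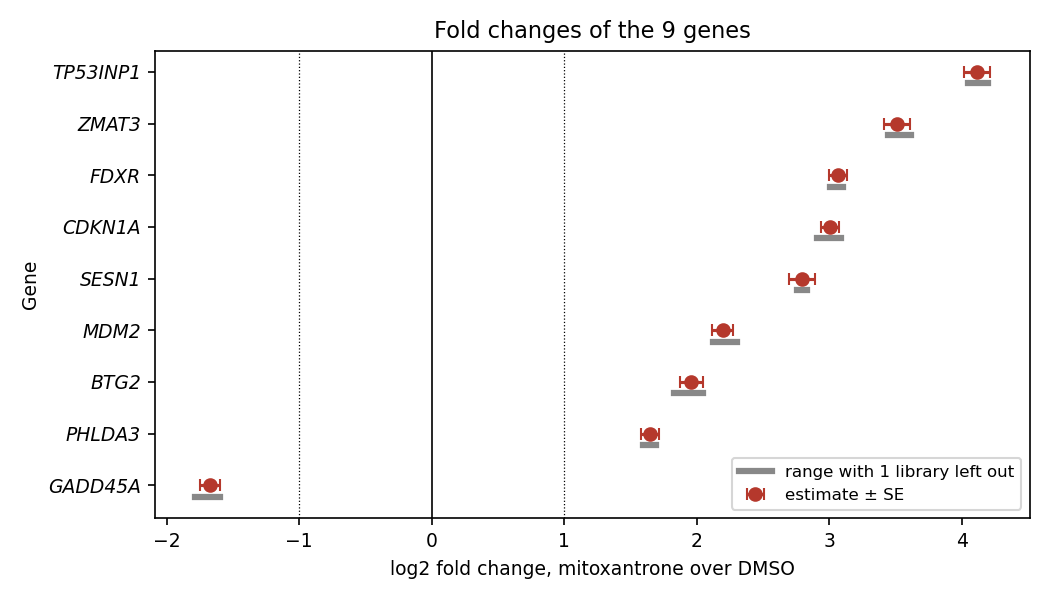
Log2 fold change, mitoxantrone over DMSO, of the 9 genes from edgeR, with error bars for the standard error, grey bars for the range when 1 library is left out, and dotted lines at a 2-fold change. TP53INP1 is highest at 4.11 and GADD45A is the only value below 0, at -1.67.

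Levels of different genes were compared in FPKM, which is per length. In mitoxantrone libraries CDKN1A was the most abundant of the 9 at 597, 578 and 573 FPKM, and in DMSO libraries it had 85.9, 78.6 and 66.6 FPKM. GADD45A had 54.9, 55.3 and 57.5 FPKM with mitoxantrone and 208, 200 and 159 FPKM with DMSO, where it was the most abundant of the 9. From high to low the mean FPKM with mitoxantrone was 583 for CDKN1A, 164 for PHLDA3, 145 for FDXR, 55.9 for GADD45A, 44.6 for MDM2, 36.3 for BTG2, 20.6 for TP53INP1, 9.60 for SESN1 and 8.56 for ZMAT3. Only SESN1 and ZMAT3 had library ranges that overlapped. With DMSO the order was GADD45A at 189, CDKN1A at 77.0, PHLDA3 at 55.4, FDXR at 18.4, MDM2 at 10.3, BTG2 at 9.90, SESN1 at 1.47, TP53INP1 at 1.26 and ZMAT3 at 0.793. There only MDM2 and BTG2 overlapped.

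**Figure D3:**
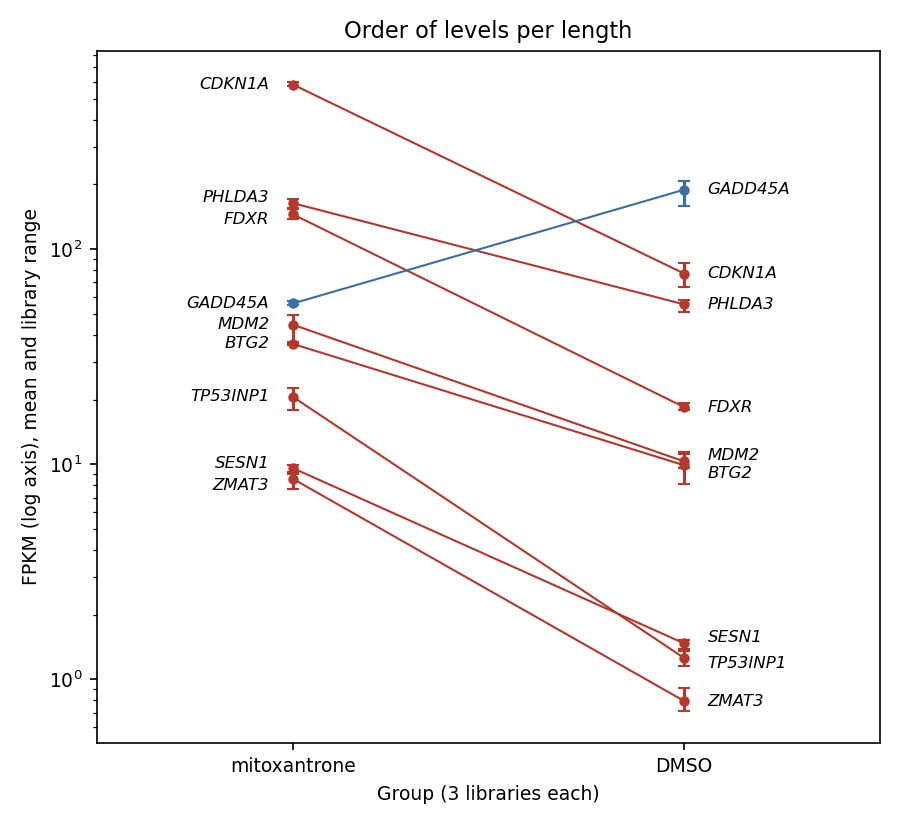
Mean FPKM (log axis) of the 9 genes in the mitoxantrone group, left, and the DMSO group, right, with bars for the range over 3 libraries and a line joining each gene. CDKN1A leads with mitoxantrone (mean 583 FPKM) and GADD45A leads with DMSO (mean 189 FPKM).

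The summed FPKM of the 9 genes was 1067 ± 17.6 with mitoxantrone and 364 ± 41.9 with DMSO (SD, n = 3 each). CDKN1A made up 54.6 ± 0.336% of that sum with mitoxantrone and 21.2 ± 0.479% with DMSO. GADD45A made up 5.24 ± 0.214% with mitoxantrone and 51.9 ± 1.36% with DMSO. PHLDA3, which was itself higher, took 15.3 ± 0.532% with mitoxantrone and 15.3 ± 0.956% with DMSO. FDXR took 13.6 ± 0.572% with mitoxantrone and 5.11 ± 0.481% with DMSO, and the other 5 genes together took 11.2 ± 1.09% with mitoxantrone and 6.53 ± 0.258% with DMSO.

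Ratios between genes within a library do not depend on the size factors. CDKN1A had 9.95 to 10.9 times the FPKM of GADD45A in mitoxantrone libraries and 0.393 to 0.419 times in DMSO libraries. Against PHLDA3 the CDKN1A ratio was 3.48 to 3.69 with mitoxantrone and 1.30 to 1.52 with DMSO. Against MDM2 it was 11.7 to 16.1 with mitoxantrone and 6.95 to 7.94 with DMSO, and against BTG2 it was 15.8 to 16.3 with mitoxantrone and 7.51 to 8.20 with DMSO. In each of these ratios all mitoxantrone libraries lay above all DMSO libraries. The ratio to TP53INP1 was lower with mitoxantrone, at 25.5 to 33.5, than with DMSO, at 53.3 to 67.7, and that to ZMAT3 was 63.0 to 77.8 with mitoxantrone and 87.6 to 111 with DMSO. For SESN1 it was 57.6 to 66.5 with mitoxantrone and 43.5 to 57.3 with DMSO. FDXR was the only gene whose ratio ranges overlapped, at 3.87 to 4.17 with mitoxantrone and 3.72 to 4.44 with DMSO.

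Within the DMSO group the 9 genes leaned the same way in 2 libraries, while within the mitoxantrone group they did not. Each library was set against the others of its group, so a gene's differences cancel out within the group. The leanings in DMSO 1 and DMSO 3 are therefore not separate observations. In mitoxantrone 1, set against the mean of mitoxantrone 2 and 3, the log2 difference was -0.35 for MDM2, -0.27 for TP53INP1, -0.20 for ZMAT3 and -0.11 for SESN1. These are the 4 longest of the 9 genes, at 5121 to 9646 bases. The shorter genes stood at 0.16 for FDXR, 0.14 for PHLDA3, 0.09 for CDKN1A, 0.05 for BTG2 and -0.01 for GADD45A. Among the 2622 listed genes that averaged 50 or more normalized counts, 10.1% were lower than MDM2 in this difference and 79.0% were lower than FDXR. With those genes cut into 4 equal groups by length, the median difference was 0.06 in the shortest group, then 0.03 and 0.02, and 0.00 in the longest. The part of length in the values of the 9 was not tested. In DMSO 1, against DMSO 2 and 3, all 9 genes were higher, by 0.04 (SESN1) to 0.30 (ZMAT3) on the log2 scale, where the medians of the 4 length groups lay between -0.05 and 0.05. In DMSO 3, against DMSO 1 and 2, 8 of the 9 were lower and SESN1 was higher, at 0.07. The log2 difference there was -0.42 for BTG2, -0.37 for GADD45A, -0.32 for CDKN1A and -0.18 for PHLDA3. Only 2.48% of the 2622 genes were lower there than BTG2, 3.51% lower than GADD45A and 4.88% lower than CDKN1A. For the rest of the 9 that share ran from 14.8% (PHLDA3) to 66.4% (SESN1), with TP53INP1 at 43.7%. Leaving out mitoxantrone 1 gave log2 fold changes of 2.30 for MDM2 and 4.20 for TP53INP1, and leaving out DMSO 3 gave 2.91 for CDKN1A and 1.83 for BTG2.

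**Figure D4:**
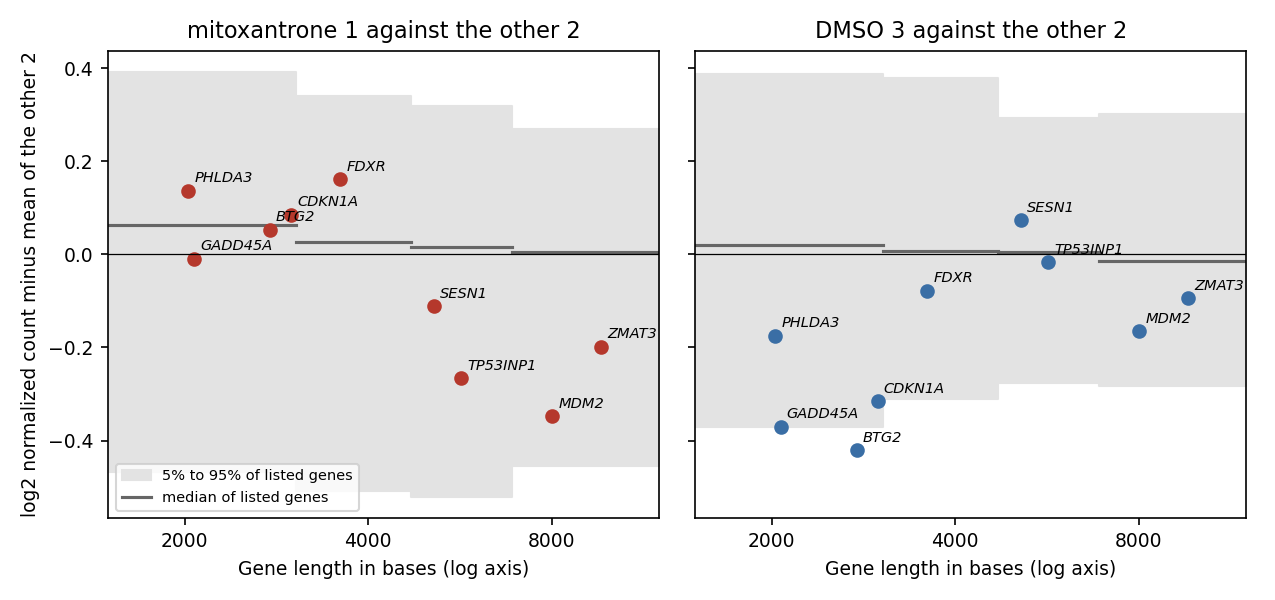
Log2 difference of mitoxantrone 1 from the other mitoxantrone libraries (first panel) and of DMSO 3 from the other DMSO libraries (second panel) against gene length in bases, with the 9 genes named; the grey band spans 5% to 95% of 2622 listed genes in each of 4 length groups, and grey lines are their medians. In the first panel MDM2 is lowest at -0.35, and in the second BTG2 is lowest at -0.42.

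Relatives and close partners of the 9 genes, among them CDK inhibitors that are not related to CDKN1A in sequence, were counted from a list of 26 genes. Of these, 17 were not listed, so that their direction is not known, and 9 were listed, 2 higher and 7 lower. Their median log2 fold change was -1.50, against 1.20 for all genes tested, of which 58.9% were higher and 41.1% lower. GADD45B, a relative of GADD45A with a similar role, had 646, 669 and 580.5 normalized counts with mitoxantrone and 8190, 7983 and 6626 with DMSO. No library overlapped, and the mean was 12-fold lower (log2 fold change -3.59 ± 0.08 SE, adjusted p = 1.3e-33, edgeR). In mean FPKM, GADD45A and GADD45B stood apart with mitoxantrone, at 55.9 and 14.9, and near each other with DMSO, at 189 and 190. The other large changes were -2.55 for CDKN2C, an inhibitor of CDK4 and CDK6 from the INK4 family, -1.66 for PHLDA1, a relative of PHLDA3, and 1.65 for SESN3, a sestrin. TP53INP2, which works in autophagy, was the other higher gene at 1.20. MDM4, which binds and inhibits p53 together with MDM2, had 210, 239 and 295 normalized counts with mitoxantrone and 688, 670 and 609 with DMSO (log2 fold change -1.39). BTG1, the closest relative of BTG2 and named after its values were seen, had 1858, 1779 and 1786 normalized counts with mitoxantrone and 3989, 4143 and 4023 with DMSO (log2 fold change -1.16). CDKN1B, the listed CDK inhibitor related to CDKN1A, was named in the same way. It had 327, 384 and 410 normalized counts with mitoxantrone and 1092, 1056 and 1073 with DMSO (log2 fold change -1.52).

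**Figure D5:**
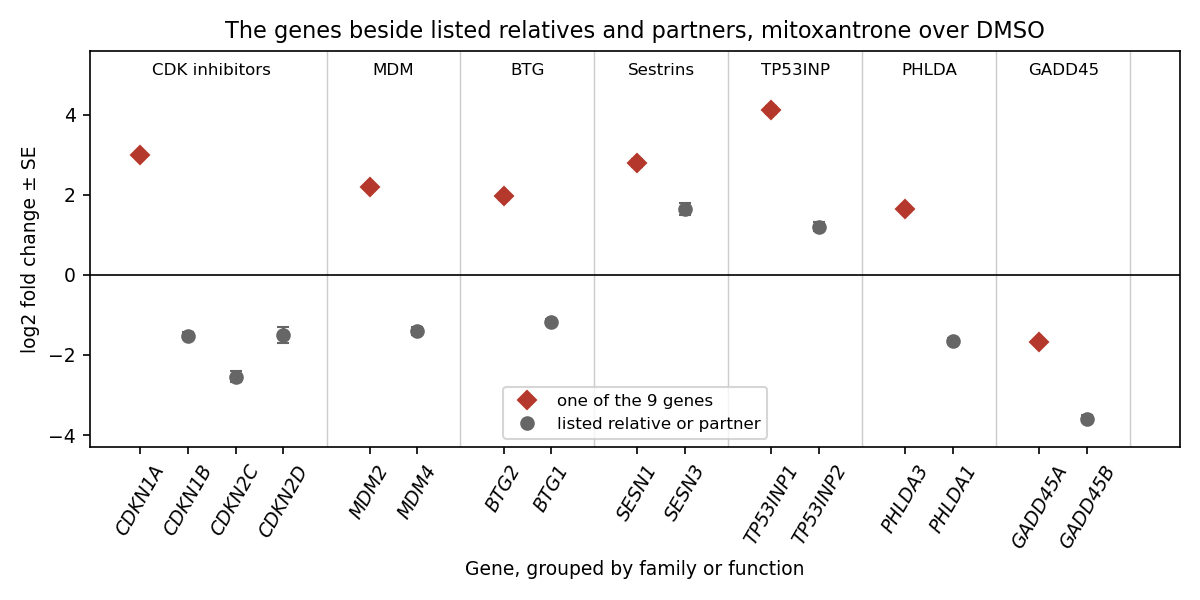
Log2 fold change, mitoxantrone over DMSO, of genes of the 9 with a listed relative or partner (diamonds) and of those relatives and partners (circles), grouped by family or function, with bars for the standard error. GADD45A and GADD45B are both below 0 (-1.67 and -3.59), while MDM2 (2.2) and MDM4 (-1.39), and BTG2 (1.96) and BTG1 (-1.16), lie on opposite sides of 0.

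Other known targets of p53 were counted from named lists for context. For all listed genes the shares were 58.9% higher and 41.1% lower, and the median was 1.20 on the log2 scale. Of 47 further targets outside the death and repair lists, 27 were listed, 25 higher and 2 lower (median log2 fold change 1.74). The largest were TRIM22, an interferon-inducible ubiquitin ligase, at 5.98, ABCA12, a lipid transporter, at 4.55, PLXNB3, a semaphorin receptor, at 3.82, and SPATA18, which takes part in mitochondrial quality control, at 3.51. The lower genes were LIF, a cytokine, at -1.37 and DUSP5, a phosphatase of ERK, at -1.03. Of 18 death genes 8 were listed, 7 higher and 1 lower, median 1.71. They included FAS, a death receptor, at 3.09, TNFRSF10D, a decoy receptor for TRAIL, at 2.87, and TP53I3 at 1.81, while PMAIP1, the BH3 protein NOXA, was lower at -1.24. CASP1, an inflammatory caspase of the same list, had 77 reads in the mitoxantrone libraries and 1 read in the DMSO libraries, a ratio of 97.3 after size factors with an exact 95% interval of 17.0 to 3893 that covers counting error alone. Of 11 repair genes 6 were listed, 4 higher and 2 lower, median 1.04, which is near the shares and the median of all listed genes. POLH, a translesion polymerase, was at 2.35 and PCNA, the replication clamp, at 1.13. FANCC, of the Fanconi anaemia core complex, was lower at -1.53 and POLK, another translesion polymerase, at -1.08.

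Of 25 genes that act upstream of p53 or feed back on it, 5 were listed, 2 higher and 3 lower, with a median of -1.39. Among all listed genes 58.9% were higher and 41.1% lower, with a median of 1.20. PML, the organiser of PML nuclear bodies, was at 2.02 and CCNG2, an unusual cyclin, at 1.65. CHEK1, the checkpoint kinase, was at -1.71, SIAH1, a ubiquitin ligase, at -1.44, and MDM4 at -1.39. ATM and PPM1D, which encodes the WIP1 phosphatase, were not listed, which does not mean that they were unchanged.

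Genes of the cell cycle machinery that p21 binds or represses were counted beside CDKN1A. For comparison, 58.9% of all listed genes were higher and 41.1% lower, with a median of 1.20. Of 15 kinases, cyclins and partners bound by p21, 11 were listed, 4 higher and 7 lower, median -1.43. CDK1, the mitotic kinase, was at -5.19, CCNA2 at -4.98, CCNB2 at -4.57 and CCNB1 at -3.19 on the log2 scale. The higher ones were CCND1 at 1.69, CCND3 at 1.52, PCNA at 1.13 and CCNE1 at 1.03. The other lower ones were CDK2 at -1.47, CCNE2 at -1.43 and CDK6 at -1.31. Of 30 genes known to be repressed through the DREAM complex, which p21 helps to form, all 30 were listed and lower (median -4.43). The largest changes were CENPA at -5.87, MKI67 at -5.83, AURKB at -5.81 and BIRC5 at -5.79. That list was chosen with earlier results of these data known, so its count is a description and no independent evidence. Of 6 partners of GADD45 proteins, 5 were listed, 2 higher (CDKN1A itself and PCNA) and 3 lower (CDK1, CCNB1 and AURKA, a mitotic kinase, at -3.58), median -3.19. These lists share genes, CDK1 and CCNB1 among them.

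GADD45A is also known as a target of ATF4, the transcription factor of the integrated stress response. Of 23 other ATF4 targets, 17 were listed, and lower values with mitoxantrone were found for all 17 (median -2.15). Among all listed genes 41.1% were lower, and this list too was chosen with earlier results of these data known. The largest were PHGDH, of serine synthesis, at -4.56, TRIB3, a pseudokinase, at -4.51, ASNS, asparagine synthetase, at -4.11 and CHAC1, which breaks down glutathione, at -3.60. DDIT3, which encodes CHOP, was at -3.33 and ATF4 itself at -1.24, both named after their values were seen. Whether these moved with GADD45A for a shared reason was not tested.

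Profiles over the 6 libraries, each centred on its own mean, were compared by Euclidean distance of log2 normalized counts among 2621 other listed genes. Since every listed gene differed between the groups, near neighbours share mainly the size of that difference. CDKN1A lay nearest to CLDN4, a tight-junction claudin (distance 0.138), then ALS2CL (0.214) and FDXR (0.218). FDXR too lay nearest to CLDN4 (0.103). GADD45A lay nearest to ADM, which encodes adrenomedullin (0.0980), then GRIN2B (0.102) and RTTN (0.156). The nearest gene to PHLDA3 was CLN8 (0.0950).

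Some limits bear on the counts. Whether counting used strand is not stated, and SESN1 overlaps a listed antisense gene, RP11-787I22.3, over 644 bases. That gene had 24 reads in the mitoxantrone libraries and 2 in the DMSO libraries, while SESN1 had 2637 with mitoxantrone and 480 with DMSO. In GENCODE 29 (GRCh38) CDKN1A overlaps DINOL, and MDM2 overlaps CPM over 8490 bases, both on the other strand. TP53INP1 overlaps NDUFAF6, a protein-coding gene on the other strand, over its whole span of 23440 bases. NDUFAF6 was not listed, so its reads are not known here. PHLDA3 overlaps AC096677.2 on its own strand over 764 bases. The last is a listed gene too, as RP11-134G8.8, with 612 reads in the mitoxantrone libraries and 169 in the DMSO libraries, while PHLDA3 had 17727 with mitoxantrone and 7156 with DMSO. Reads of such pairs may be uncertain. Of 13 lung epithelial markers 3 were listed, with a summed FPKM of 1497 to 1612 for mitoxantrone and 638 to 725 for DMSO. Leukocyte markers (3 of 10 listed) summed to 3.85 to 4.14 FPKM with mitoxantrone and 0.87 to 1.04 with DMSO, fibroblast markers (2 of 8) to 1.82 to 2.27 with mitoxantrone and 3.47 to 3.78 with DMSO, and endothelial markers (2 of 5) to 0.11 to 0.12 with mitoxantrone and 0 to 0.01 with DMSO. Defining markers such as EPCAM, NKX2-1, PTPRC and PECAM1 were not listed, so the cell type could not be checked by them. Each value is a share of its library's RNA, and no spike-in values were analysed here. In bulk RNA fewer cells of a kind and less RNA per cell cannot be told apart.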

How the data were processed

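Total RNA of 6 A549 libraries, 3 per group, was sequenced as 2x150 base pairs after 13 PCR cycles, per the labels' protocols; groups and replicate numbers came from the titles. Tools listed in the submitters' processing notes are SAMtools 0.1.19, HTSeq 0.6.1, HISAT2 2.0.1, Cufflinks 2.2.1, DESeq2 and cutadapt 1.9.1, with no role stated; the build is not given in the sources used here. Per the file headers, the authors' table gives raw counts and FPKM values for each gene and library. It also holds the authors' mean normalized count, a signal made by dividing counts by size factors, and the authors' log2 fold change with its standard error. The deposited score is the fold change over that error, and a p-value and adjusted p-value close each deposited row.

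Size factors of 0.827 to 0.980 for mitoxantrone and 1.08 to 1.17 for DMSO were recovered by least squares (largest relative residual 4.8e-10). Genes were tested in R 4.3.3 with edgeR 4.0.16 (glmQLFTest, and glmTreat for a change beyond 2-fold), on all 4546 genes with no covariate. The biological coefficient of variation was 6.69%. Fitted log2 fold changes of the 9 genes lay within 0.0231 of those in the authors' deposited table. The fit was also run on simulated data of 4546 genes for this comparison, with 200 changed genes at a dispersion of 0.02. It recovered 60% of genes changed by 1 on the log2 scale and 88% of those changed by 2, and 2.63% of calls were unchanged genes. That dispersion is a wider spread than the 6.69% of these data, where every listed gene was called. The simulated shares therefore do not give the power of the real comparison. Alternatives used DESeq2 1.42.0, limma 3.58.1 on log2(FPKM + 1), other size factors, filters and left-out libraries. The name table held 4371 of the gene identifiers; 4 symbols that had become dates were restored, and 8 rows share a symbol. The intervals cover counting error only.

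The 9 genes and the lists were chosen with earlier results of these data known. Named from each list were the 4 largest changes and any gene against its majority, and for patterns up to 3 nearest genes averaging 50 or more normalized counts. Genes not in the deposited table were not analysed here.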

Additional observations from a re-analysis of the deposited data

How the results depend on the processing

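Under 16 alternative settings (DESeq2, TMM or library totals as size factors, filters on low values, limma on log2(FPKM + 1) or with 0.1 added, a stricter threshold, a 2-fold test, each library left out, and a replicate block), all 144 values of the 9 genes kept their direction and their side of the threshold. Of 306 counts, 301 stayed within 1.5 times. The exceptions were 1098 genes higher instead of 2677 (and 1416 lower) with limma where the mean FPKM was at least 1, which tests fewer genes; 1 lower gene instead of 2 among other p53 targets, and 2 higher instead of 4 and 1 lower instead of 2 among repair targets, against a 2-fold change; and the order of levels with DMSO, where leaving out a library moved 0 to 2 of the 9 genes, BTG2 and MDM2 changing places without DMSO 3. TMM size factors shifted the median of all genes by -0.258 on the log2 scale and library totals by -0.085. The share of higher genes was 58.9% in the reported fit and 52.4% with a filter on counts. Deviations from the group means were little correlated between libraries of the same replicate number (-0.068, -0.080 and 0.032 over 2622 genes). That does not show whether the libraries were prepared in pairs, which the labels do not say. The replicate block gave 2677 higher and 1869 lower genes with 8 and 1 of the 9. Depth limits ZMAT3, TP53INP1 and SESN1 in DMSO libraries, where each had fewest reads, and the selected table limits every count to genes already past a threshold.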
